A study of Mus musculus with 132 samples.

Results

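Flk1+ mesoderm, made from wild-type mouse embryonic stem cells (mESCs) in 4 days of differentiation, was compared with undifferentiated wild-type mESCs, gene by gene, by poly(A)-minus RNA-seq. The libraries were chosen by their labels alone and number 5 of the 23 RNA-seq libraries in the count table and of 132 samples in the series, which follows the Runx1 locus through blood development. All 5 come from E14-TG2a, a male 129/Ola mESC line of wild-type genotype. The 2 undifferentiated libraries (mESC 1 and mESC 2, day 0) are labelled technical replicates of a single E14 culture, grown without feeders in medium with LIF. The 3 mesoderm libraries (day 4) are labelled as biological replicates B9.3, C6.1 and C8.1. By the study's methods they are cells with Flk1 on their surface, sorted from embryoid bodies kept in serum-free medium with BMP4, to which bFGF and Activin A were added. Because the sort used Flk1, the product of Kdr, the level of Kdr is a check of the label and not a finding. Poly(A)-minus RNA is rich in unspliced, newly made transcripts, and reads in introns were counted with those in exons.

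Embryonic stem cells are held in pluripotency by transcription factors that sustain each other's expression and by LIF, which acts through STAT3. When BMP, Wnt and Nodal signals act, cells leave this state by way of the primitive streak: they lose the adhesion molecules of an epithelium, and the mesoderm that forms is sorted into paraxial, lateral plate, cardiac and blood-forming parts. Flk1, a receptor for VEGF, marks the mesoderm that gives rise to blood, endothelium, heart and smooth muscle.

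The preparations differed between the stages. The study's methods name ribosomal RNA depletion for the undifferentiated cells and none for mesoderm, whereas the labels name it for RNA-seq in general. Entries of ribosomal RNA or of several loci held 68.1 and 76.3% of the counts of the mESC libraries and 89.1 to 91% of the mesoderm libraries. The median tested gene had 220 and 123 counts in the mESC libraries but 19, 9 and 19 counts in mesoderm B9.3, C6.1 and C8.1, lowest in C6.1. Library preparation, cell number, the culture behind the replicate name and stage cannot be told apart in this comparison. Nor can fewer cells of a type and less RNA per cell. The names of the mesoderm replicates also label undifferentiated samples of another assay in the series. The mESC RNA-seq libraries do not carry these names and are labelled E14. Within each stage the libraries differed by more than sampling noise, with a chi-square per gene of 36.8 between the mESC libraries and 9.46 to 28.5 between pairs of mesoderm libraries. The mESC libraries are nevertheless from 1 culture, and entered the fit as 2 samples.

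The promoters of 3 genes gained and 3 lost on the way to mesoderm show which letters lie upstream of the genes at the centre of this comparison. They are Kdr, Cbfa2t3 (a corepressor that works with TAL1) and Tal1 (a master factor of blood fate), then Zfp42 (REX1, a marker of naive pluripotency), Tfcp2l1 (a naive pluripotency factor) and Lncenc1 (a long noncoding RNA abundant in naive mESCs). Each line gives the 250 bases before the annotated start, 5′ to 3′ on the gene's strand, from RefSeq on GRCm38.p6. Cbfa2t3 and Tal1 have 2 promoters each in that source, and the first listed is printed. Capitals mark matches on either strand to an octamer (ATTTGCAT, bound by OCT4), a GATA motif (AGATAA), an ETS motif (CCGGAAGT), a GC box (GGGCGG) or a TATA box (TATAAA).
Kdr, chr5:75978456-75978705, minus strand: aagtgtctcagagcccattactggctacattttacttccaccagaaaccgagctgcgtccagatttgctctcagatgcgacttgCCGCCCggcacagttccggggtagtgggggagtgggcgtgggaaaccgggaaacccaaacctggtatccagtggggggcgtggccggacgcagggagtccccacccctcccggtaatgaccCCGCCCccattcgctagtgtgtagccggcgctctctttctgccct
Cbfa2t3, chr8:122699110-122699359, minus strand: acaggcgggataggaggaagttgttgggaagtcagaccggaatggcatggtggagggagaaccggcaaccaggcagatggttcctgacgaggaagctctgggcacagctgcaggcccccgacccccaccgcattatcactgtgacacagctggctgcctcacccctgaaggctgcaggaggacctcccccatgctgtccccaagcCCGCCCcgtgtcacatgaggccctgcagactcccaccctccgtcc
Tal1, chr4:115056176-115056425, plus strand: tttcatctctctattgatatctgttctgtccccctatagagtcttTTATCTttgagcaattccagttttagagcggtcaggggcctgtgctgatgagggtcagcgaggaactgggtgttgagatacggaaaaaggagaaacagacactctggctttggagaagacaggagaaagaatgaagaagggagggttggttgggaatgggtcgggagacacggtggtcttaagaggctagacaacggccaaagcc
Zfp42, chr8:43307010-43307259, minus strand: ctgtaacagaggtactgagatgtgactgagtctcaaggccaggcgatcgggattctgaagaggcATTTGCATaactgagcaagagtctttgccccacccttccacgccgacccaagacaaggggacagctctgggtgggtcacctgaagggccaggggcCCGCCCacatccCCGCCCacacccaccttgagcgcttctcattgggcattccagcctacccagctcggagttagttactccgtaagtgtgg
Tfcp2l1, chr1:118627695-118627944, plus strand: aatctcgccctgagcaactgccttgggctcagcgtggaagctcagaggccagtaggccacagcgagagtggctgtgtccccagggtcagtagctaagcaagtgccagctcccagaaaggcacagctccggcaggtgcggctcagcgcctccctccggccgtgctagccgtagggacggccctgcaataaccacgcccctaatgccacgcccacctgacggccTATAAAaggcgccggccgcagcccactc
Lncenc1, chr13:97434720-97434969, plus strand: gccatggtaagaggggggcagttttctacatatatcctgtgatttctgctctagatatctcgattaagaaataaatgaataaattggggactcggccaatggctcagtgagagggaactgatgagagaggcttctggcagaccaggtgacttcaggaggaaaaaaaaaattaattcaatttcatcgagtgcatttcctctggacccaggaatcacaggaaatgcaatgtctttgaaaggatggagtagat
The Zfp42 window held an octamer 186 bases before its start, a motif found in 1.6% of all 32851 promoter windows of the table. Kdr and Zfp42 held 2 GC boxes each and Cbfa2t3 held 1, and 32.7% of all windows hold one, as do 61.3% of the first windows of tested genes. A GATA motif lay 205 bases before the Tal1 start (9.99% of all windows and 5.39% of the first windows of tested genes). A TATA box lay 28 bases before the start of Tfcp2l1 (12.4% and 6%). Lncenc1 held none of the 5 motifs. The table had a window for 10005 of the tested genes. Counting the first window of each gene, the ETS motif was in 1.51% of the 992 genes called higher in mesoderm, 4.76% of the 1323 called lower and 6.78% of the 7690 not called. The octamer was in 1.01, 2.34 and 1.3% of the same groups. These are matches of letters in 1 window per gene, given as a description.

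Of 12899 genes tested, 1386 were higher in mesoderm and 1761 were lower (edgeR quasi-likelihood test, Benjamini-Hochberg adjusted p under 0.05 and a fold change over 2 in either direction). These are 10.7% and 13.7% of the tested genes, 24.4% in both directions together. They are the background for the counts below, although the background moved with gene length, as described next. The libraries of the stages did not overlap in CPM for 1297 of the 1386 higher calls and for all 1761 lower calls. Lack of overlap is therefore common to nearly all called genes and sets no named gene apart. The median log2 fold change over all tested genes was -0.18. DESeq2 on the same libraries gave 1453 higher and 1216 lower, so that genes higher in mesoderm made up 54.4% of its calls against 44% by edgeR. The counts rest on treating the technical replicates of one mESC culture as 2 samples: with the pair summed to 1 sample, 553 genes were higher and 589 lower, 531 and 589 of which were among the calls above. Leaving out mESC 1 gave 545 and 540 calls, and leaving out mESC 2 gave 507 and 581. Genes said below to have lost their call in the summed fit were not called when the pair was summed. Not every such gene is marked, and the counts per list show how many calls remained.

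The direction of change moved with gene length. With the tested genes cut into 4 equal bins of length, 4.57% of the shortest bin (up to 10874 bp from start to end, introns included) were higher and 16.3% lower, with a median log2 fold change of -0.57. In the longest bin (from 61587 bp) 22.8% were higher and 10.9% lower, with a median of 0.36. The part that library preparation had in this was not tested. When the smoothed trend over length was taken out as an offset, 1299 genes were higher and 1460 lower, and 1075 and 1235 of these were calls without the offset. Below, the BMP, Wnt, FGF and matrix lists had median lengths of 61704, 63575.5, 64554 and 76182.5 bp, within the longest bin. The shares of that bin are the nearer background for these lists. With the offset 17, 10, 6 and 5 of their members were higher and 0, 1, 0 and 3 lower.

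**Figure D1:**
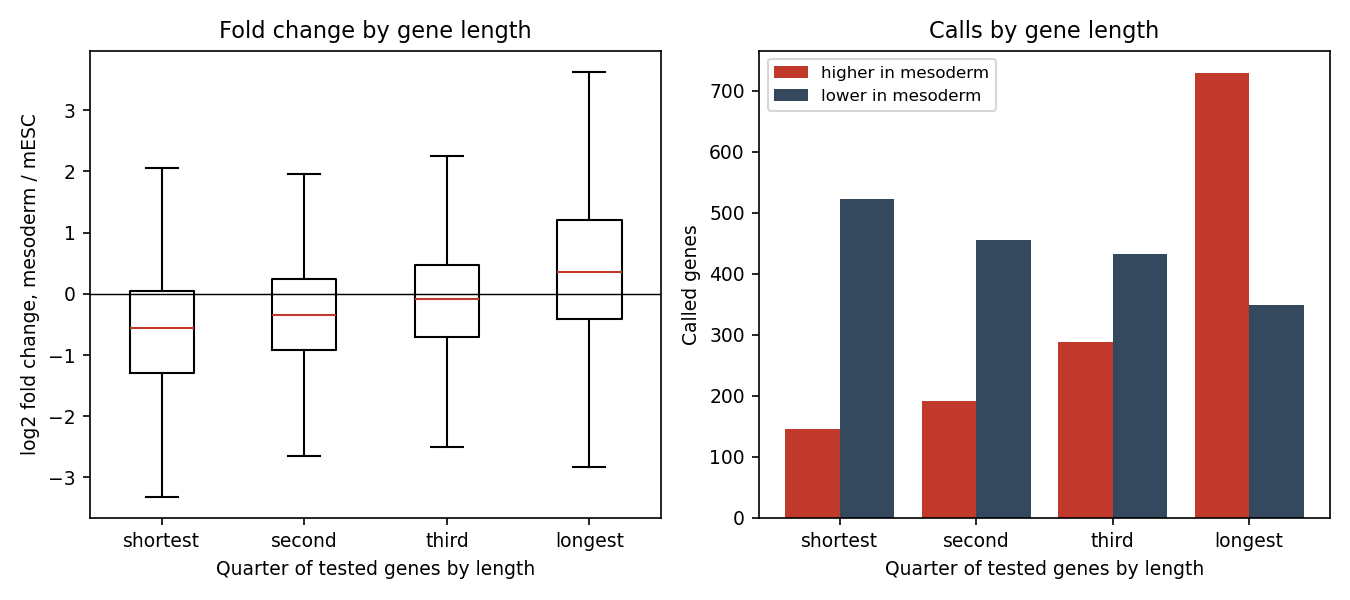
Log2 fold change of mesoderm over mESC (left; boxes span the interquartile range, red lines are medians, whiskers reach the furthest gene within 1.5 box lengths) and number of called genes (right) in 4 equal bins of tested genes by length. The median rises from -0.57 in the shortest bin to 0.36 in the longest, where 729 genes were higher and 348 lower.

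The markers of the stages separated the libraries as labelled. Kdr stood at 0.125 and 0.146 CPM in mESCs and 51.1, 36.2 and 22.7 CPM in mesoderm B9.3, C6.1 and C8.1, in that order here and below, and every mesoderm library lay far above both mESC libraries. Values are normalized counts (CPM, scaled by TMM library size). Cbfa2t3 had 0.133 and 0.173 CPM in mESCs and 4.94, 4.58 and 4.52 CPM in mesoderm (log2 fold change 4.93 ± 0.29 SE, adjusted p = 1.4e-05). The 3 mesoderm libraries lay close together for Cbfa2t3, although the depth behind them differed. Zfp42 had 12.2 and 14.5 CPM in mESCs and 0.157, 0.327 and 0.162 CPM in mesoderm, from 2 counts in each mesoderm library (log2 fold change -6.07 ± 0.42 SE, adjusted p = 1.8e-05). Per kilobase of gene, the mean level in mesoderm was 0.803 CPM for Kdr and 0.0633 for Cbfa2t3, and in mESCs 1.12 CPM for Zfp42. Markers of other lineages were sparse. Nkx2-5 (cardiac), Sox1 (neural), Foxa2, Cer1, Afp and Ttr (endoderm and yolk sac) had too few counts to be tested, with 0 to 2 counts in any mesoderm library, and Afp, Ttr and Cer1 had no count in any of the 5. Mesp1, of early cardiac mesoderm, had 0 and 1 counts in the mESC libraries and 1, 7 and 0 in mesoderm, and Sox17, of endoderm and endothelium, had 0 and 1 counts in the mESC libraries and 26, 0 and 0 in mesoderm, too few to be tested.

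**Figure D2:**
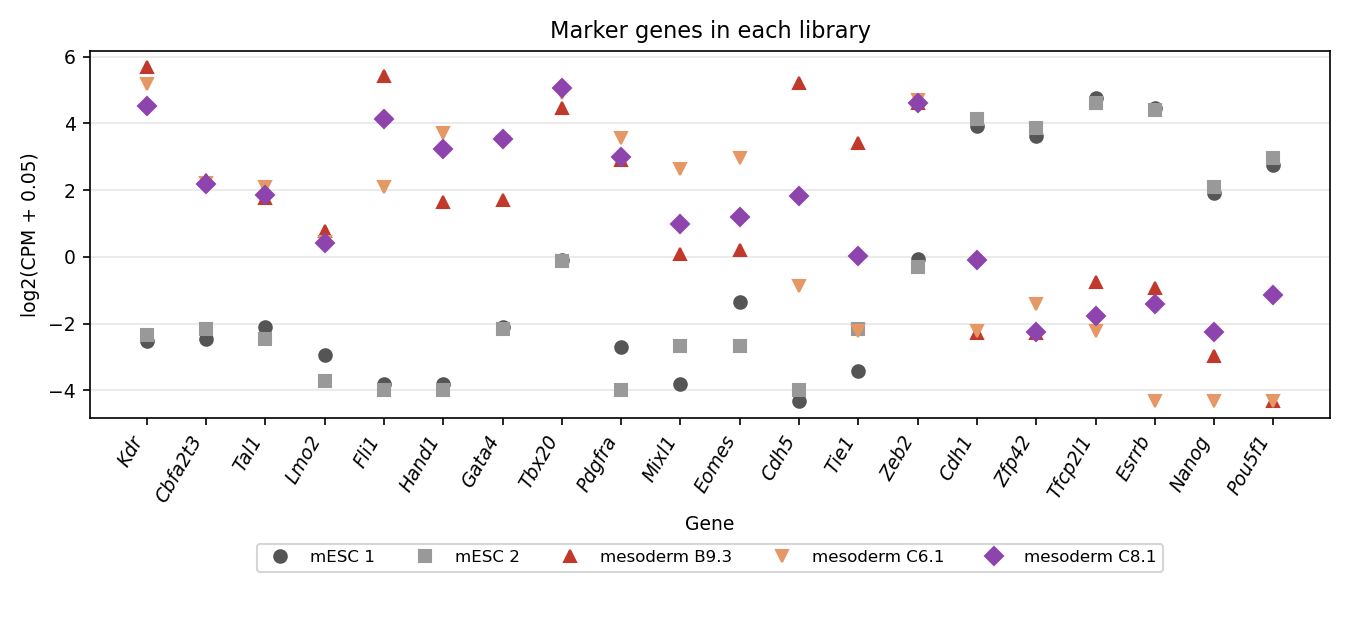
Level of 20 marker genes in each of the 5 libraries, as log2(CPM + 0.05); each symbol is 1 library. Mesoderm genes (left) are higher in the mesoderm libraries, except Tie1 in C6.1, which lies between the mESC libraries, pluripotency genes (right) in the mESC libraries, and for Cdh5 and Tie1 the mesoderm libraries are spread apart, with B9.3 highest.

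The pluripotency factors had the lowest median change of the 27 gene lists described here. Of the list, 1 of the 31 tested members was called higher, 23 lower and 7 in neither direction (1 higher and 20 lower in the summed fit), with a median log2 fold change of -5.39, or -4.77 with members at 0 counts in mesoderm set to their bound. Tfcp2l1 had 27.1 and 24.3 CPM in mESCs and 0.549, 0.164 and 0.242 CPM in mesoderm (log2 fold change -6.19 ± 0.42 SE, adjusted p = 1.8e-05). Nr5a2, a nuclear receptor that can drive Pou5f1, had 7.24 and 7.48 CPM in mESCs and 0.235, 0 and 0.162 CPM in mesoderm (log2 fold change -5.51 ± 0.52 SE, adjusted p = 9.5e-05). L1td1, an RNA-binding protein of pluripotent cells, kept 1 count in all of mesoderm against 1418 and 1125 in the mESC libraries, a ratio of 377-fold with a 95% counting interval of 67.6 to 14900. For each of these the stages did not overlap and mesoderm was near 0. Esrrb, an orphan nuclear receptor that props up the naive state, had 22.2 and 20.9 CPM in mESCs and 0.47, 0 and 0.323 CPM in mesoderm. Nanog had 1, 0 and 2 counts in mesoderm, a ratio of 40.7-fold with a 95% counting interval of 13.9 to 198.

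Tbx3, which serves pluripotency in mESCs and is also a gene of the heart field, rose, with 0.834 and 0.492 CPM in mESCs and 10.3, 32.2 and 18.7 CPM in mesoderm (log2 fold change 4.90 ± 0.53 SE, adjusted p = 0.00015). Sall4 had 43.2 and 45.7 CPM in mESCs and 14.1, 46 and 29.1 CPM in mesoderm and was not called (log2 fold change -0.59 ± 0.38 SE, adjusted p = 0.27), and its C6.1 library reached the mESC level. Trim71, an RNA-binding ubiquitin ligase, had 62.5 and 68.8 CPM in mESCs and 34.6, 45.4 and 57.5 CPM in mesoderm. Lin28a, which blocks let-7 processing, had 21.7 and 24.7 CPM in mESCs and 8, 16.4 and 16.1 CPM in mesoderm. Neither was called (adjusted p = 0.47 and adjusted p = 0.16). DESeq2 did not call Pou5f1 (adjusted p = 0.22, and 1.3e-10 to 0.22 over all alternatives) or Sox2 (adjusted p = 0.25, and 1.7e-08 to 0.25 over all alternatives), which edgeR called lower (adjusted p = 0.00088 and adjusted p = 0.002); both had 0 counts in B9.3 and C6.1 and 5 and 4 counts in C8.1.

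Among genes of LIF and STAT3 signalling, several targets were lower and the receptor chains were not called. On that list 1 of the 12 tested members was called higher, 5 lower and 6 in neither direction, with a median log2 fold change of -0.35 (0 higher and 4 lower in the summed fit). Pim1, a kinase induced by STAT3, had 4.69 and 6.29 CPM in mESCs and 0.706, 1.8 and 1.13 CPM in mesoderm (log2 fold change -2.27 ± 0.42 SE, adjusted p = 0.0028). Bcl3 had 1.61 and 2.17 CPM in mESCs and 0.235, 0 and 0.0807 CPM in mesoderm (log2 fold change -3.86 ± 0.64 SE, adjusted p = 0.0031). Gbx2, a STAT3 target that sustains self-renewal, kept 1 count in mesoderm, a ratio of 31-fold with a 95% counting interval of 5.5 to 1230. Socs3, the feedback inhibitor, was lower (log2 fold change -1.49 ± 0.44 SE, adjusted p = 0.028) and lost its call in the summed fit. The receptor chains Lifr, at 8.73 and 9.56 CPM in mESCs and 11.8, 29 and 19.13 CPM in mesoderm, and Il6st, at 9.82 and 8.41 CPM in mESCs and 10.5, 11.5 and 10 CPM in mesoderm, were not called (adjusted p = 0.16 and adjusted p = 0.6). Jak1, the kinase bound to them, was higher (log2 fold change 1.53 ± 0.36 SE, adjusted p = 0.0093) and lost its call in the summed fit.

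Genes of the formative and primed epiblast, the state that follows the naive one, were mostly lower by day 4. Of this list, 1 of the 18 tested members was called higher, 11 lower and 6 in neither direction, with a median log2 fold change of -2.44 (0 higher and 5 lower in the summed fit). Dnmt3l, the cofactor of the de novo DNA methyltransferases, had 4.76 and 6.19 CPM in mESCs and 0, 0 and 0 CPM in mesoderm, which makes mesoderm at least 55-fold lower against a floor of 3 counts over its libraries. Dnmt3b had 22.5 and 27.5 CPM in mESCs and 2.19, 6.88 and 5.25 CPM in mesoderm (log2 fold change -2.43 ± 0.39 SE, adjusted p = 0.0012). Dnmt3a had 6.13 and 7.88 CPM in mESCs and 12.4, 7.2 and 12 CPM in mesoderm and was not called (adjusted p = 0.23). Etv5, an ETS factor downstream of FGF, had 26.4 and 27.4 CPM in mESCs and 2.35, 7.37 and 5.25 CPM in mesoderm (log2 fold change -2.47 ± 0.37 SE, adjusted p = 0.00086). Pou3f1 (OCT6) kept 1 count in mesoderm, a ratio of 35.3-fold with a 95% counting interval of 6.27 to 1400. Lef1, a nuclear partner of beta-catenin, was the member that was higher, at 4.24 and 6.46 CPM in mESCs and 8.23, 30.9 and 24.8 CPM in mesoderm (log2 fold change 1.98 ± 0.52 SE, adjusted p = 0.015), and it lost its call in the summed fit.

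Genes of germ cells and the 2-cell stage were low in mESCs and lower in mesoderm. Only 8 of the 17 members present in the table could be tested, of which 6 were called lower and 0 higher, with a median log2 fold change of -4.18, or -2.38 with members at 0 counts at their bound. Tex14, needed for germ cell bridges, had 3.56 and 4.61 CPM in mESCs and 0.392, 0.164 and 0.727 CPM in mesoderm (log2 fold change -3.11 ± 0.59 SE, adjusted p = 0.0031), and it was the one call of the list that held in the summed fit. Ddx4 (VASA) kept 3 counts in mesoderm, a ratio of 9.09-fold with a 95% counting interval of 3.06 to 44.5. Mael, a piRNA factor, had no count there and was at least 4.3-fold lower. Outside the list, Tdrd12, a factor of the piRNA pathway, was among the most clearly lost genes, with 2 counts in mesoderm against 1771 and 931 in mESCs (adjusted p = 2.2e-05).

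Several adhesion genes of epithelia were lower in mesoderm and several mesenchymal regulators higher. On the list of epithelial-mesenchymal transition, 8 of the 21 tested members were called higher, 10 lower and 3 in neither direction (4 higher and 8 lower in the summed fit), and since the list mixes both arms its median of -1.48 describes neither. Cdh1 (E-cadherin) had 15.1 and 17.4 CPM in mESCs and 0.157, 0.164 and 0.888 CPM in mesoderm (log2 fold change -5.19 ± 0.49 SE, adjusted p = 9.5e-05). Esrp1, a splicing factor of epithelia, had 14.6 and 15.1 CPM in mESCs and 0.0784, 0 and 0.484 CPM in mesoderm (log2 fold change -6.05 ± 0.56 SE, adjusted p = 0.00023). Grhl2, a factor that keeps Cdh1 on, had 12.8 and 13.5 CPM in mESCs and 0.0784, 0.164 and 0.646 CPM in mesoderm (log2 fold change -5.36 ± 0.52 SE, adjusted p = 0.00028). C8.1 was the highest mesoderm library for these 3 genes, and it too lay far below the mESCs. Epcam was lower as well (log2 fold change -5.20 ± 0.62 SE, adjusted p = 7e-04). Cldn4, a tight junction protein, had no count in mesoderm, which was at least 30-fold lower. The junction gene Tjp1 had 18.3 and 17.2 CPM in mESCs and 43.1, 14.9 and 16.9 CPM in mesoderm and was not called (adjusted p = 0.36), nor was Cdh3 (P-cadherin), at 3.66 and 3.63 CPM in mESCs and 1.25, 0.327 and 2.02 CPM in mesoderm (adjusted p = 0.31).

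Zeb2, a repressor of Cdh1, had 0.907 and 0.758 CPM in mESCs and 24.5, 25.7 and 24.6 CPM in mesoderm (log2 fold change 4.89 ± 0.36 SE, adjusted p = 1.8e-05). Zeb1 had 1.24 and 0.864 CPM in mESCs and 39.3, 14.2 and 19.3 CPM in mesoderm (log2 fold change 4.52 ± 0.46 SE, adjusted p = 0.00014). Both were higher in every mesoderm library, and Zeb2 varied little among them. Snai1, the repressor that opens gastrulation, had 0.199 and 0.173 CPM in mESCs and 1.25, 2.62 and 1.7 CPM in mesoderm (log2 fold change 3.22 ± 0.47 SE, adjusted p = 0.0017). Cdh11, a mesenchymal cadherin, had 0.059 and 0.093 CPM in mESCs and 11.1, 34 and 33 CPM in mesoderm (log2 fold change 8.40 ± 1.36 SE, adjusted p = 0.0012). Twist2 and Mmp2 were higher and lost their calls in the summed fit (adjusted p = 0.074, and 1.2e-06 to 0.11 over all alternatives, for Twist2, and adjusted p = 0.098, and 9.4e-06 to 0.1 over all alternatives, for Mmp2). Fn1 (fibronectin) had 65.2 and 60 CPM in mESCs and 274, 559 and 226 CPM in mesoderm, with the stages apart, and was not called by edgeR (adjusted p = 0.07), while DESeq2 called it (adjusted p = 0.034, and 0.00096 to 0.28 over all alternatives).

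Most of the primitive streak genes that could be tested were higher. Of the list, 7 of the 12 tested members were called higher, 4 lower and 1 in neither direction (3 higher and 4 lower in the summed fit), and 12 of the 24 listed genes, Mesp1 and Tbx6 among them, had too few counts to be tested. Rspo3, a ligand that strengthens Wnt signalling, had 0.0885 and 0.0798 CPM in mESCs and 9.17, 15.2 and 14.1 CPM in mesoderm (log2 fold change 7.16 ± 0.51 SE, adjusted p = 1.8e-05). Mixl1, a homeobox factor of the streak, had 0.0221 and 0.106 CPM in mESCs and 1.02, 6.22 and 1.94 CPM in mesoderm (log2 fold change 5.55 ± 0.96 SE, adjusted p = 0.0039). Evx1, of the posterior streak, had 0.0295 and 0.0266 CPM in mESCs and 0.235, 3.77 and 1.78 CPM in mesoderm (log2 fold change 5.75 ± 0.94 SE, adjusted p = 0.0013). Mixl1 and Evx1 were lowest in B9.3 and highest in C6.1. T had 0.14 and 0.0532 CPM in mESCs and 0.235, 2.62 and 0.404 CPM in mesoderm (log2 fold change 3.03 ± 0.96 SE, adjusted p = 0.046). Eomes had 0.339 and 0.106 CPM in mESCs and 1.1, 7.7 and 2.26 CPM in mesoderm (log2 fold change 3.86 ± 0.86 SE, adjusted p = 0.012). Both were also highest in C6.1, and both calls were lost in the summed fit, as were those of Cdx2 and Wnt3. Without C8.1, 3 of 10 tested members were higher, and T was not called (adjusted p = 0.054, and 0.0026 to 0.26 over all alternatives). Without C6.1 the median of the list was 1.25 over 10 tested members, against 2.73 over 12 with all libraries.

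The 4 lower members of the streak list belong to Nodal and FGF signalling, which are also active in mESCs. Nodal, a ligand of the TGF-beta family, had 2.29 and 2.31 CPM in mESCs and 0.549, 0.164 and 0.323 CPM in mesoderm (log2 fold change -2.60 ± 0.46 SE, adjusted p = 0.0043), and its call ended when either mESC library was left out. Its inhibitor Lefty1 had 5.63 and 2.54 CPM in mESCs and 0.235, 0 and 0.0807 CPM in mesoderm (adjusted p = 0.0012). Lefty2 had 3.01 and 2.25 CPM in mESCs and 0.314, 0 and 0.0807 CPM in mesoderm (adjusted p = 0.0023). Fgf17 kept 2 counts in mesoderm, a ratio of 24.6-fold with a 95% counting interval of 6.76 to 204.

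Lateral plate and cardiac genes rose in nearly every tested member. Here 13 of the 15 tested members were called higher, 0 lower and 2 in neither direction, with a median log2 fold change of 5.98 (10 higher and 0 lower in the summed fit). Hand1, a bHLH factor of lateral and extraembryonic mesoderm, had 0.0221 and 0.0133 CPM in mESCs and 3.06, 12.9 and 9.45 CPM in mesoderm, from 3 and 1 counts in mESCs (log2 fold change 8.50 ± 1.27 SE, adjusted p = 0.00082). Gata4 had 0.184 and 0.173 CPM in mESCs and 3.21, 10.8 and 11.6 CPM in mesoderm (log2 fold change 5.53 ± 0.82 SE, adjusted p = 0.00077). Gata6 had 0.0443 and 0.0133 CPM in mESCs and 7.13, 5.08 and 5.25 CPM in mesoderm (log2 fold change 7.33 ± 0.98 SE, adjusted p = 0.00044). Hand1 and Gata4 were lowest in B9.3 and Gata6 was highest there, and no mesoderm library overlapped the mESCs. Pdgfra, a receptor of cardiac and paraxial precursors, had 0.103 and 0.0133 CPM in mESCs and 7.45, 11.8 and 7.91 CPM in mesoderm (log2 fold change 6.98 ± 0.80 SE, adjusted p = 2e-04). Tbx2, Msx1 and Msx2, targets of BMP signalling in many tissues, were also higher, by log2 fold changes of 6.36, 5.98 and 6.13 (adjusted p = 0.00013, adjusted p = 0.00029 and adjusted p = 0.00045). Tbx20 had 0.885 and 0.864 CPM in mESCs and 21.9, 29.8 and 33.4 CPM in mesoderm (log2 fold change 5.01 ± 1.28 SE, adjusted p = 0.014) and lost its call in the summed fit. The members that were tested and not called were Ahnak, at 73.7 and 58 CPM in mESCs and 33.6, 49.3 and 86.8 CPM in mesoderm, and Bmp4, at 0.752 and 0.824 CPM in mESCs and 0.706, 2.13 and 2.5 CPM in mesoderm (adjusted p = 0.86 and adjusted p = 0.23).

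Markers of the heart's contractile apparatus had not followed. Of the muscle structural list, 8 of 14 members were tested, with 1 called higher, 1 lower and 6 in neither direction (median log2 fold change -0.84). Tnnt2 was called higher from 5, 0 and 3 counts in mesoderm and lost its call in the summed fit. Ttn, the giant sarcomere protein, had 13.1 and 12.2 CPM in mESCs and 1.02, 0.327 and 0.162 CPM in mesoderm (log2 fold change -4.55 ± 0.47 SE, adjusted p = 0.00014).

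Most factors of the hemangioblast and early blood rose. For them 18 of the 24 tested members were called higher, 0 lower and 6 in neither direction, with a median log2 fold change of 3.93, or 3.81 with members at 0 counts in mESCs at their bound (15 higher and 0 lower in the summed fit). The 18 include Kdr, whose level is a check of the sort, and Gata1 and Hbb-bh1, which had few counts in mesoderm. Some members passed the filter on low counts through libraries of later haematopoietic progenitors (HPCs) in the same fit. With the 5 libraries alone 15 could be tested, of which 12 were higher. Tal1 had 0.184 and 0.133 CPM in mESCs and 3.37, 4.26 and 3.55 CPM in mesoderm (log2 fold change 4.47 ± 0.29 SE, adjusted p = 1.8e-05). Its partner Lmo2 had 0.0811 and 0.0266 CPM in mESCs and 1.65, 1.31 and 1.29 CPM in mesoderm (log2 fold change 4.50 ± 0.47 SE, adjusted p = 0.00014). Zfpm1 (FOG1), the cofactor of GATA1, had 0.981 and 0.851 CPM in mESCs and 8.07, 12.9 and 17.5 CPM in mesoderm (log2 fold change 3.80 ± 0.34 SE, adjusted p = 7.1e-05). For these 3 genes each mesoderm library lay above both mESC libraries, and for Tal1 and Lmo2 the 3 lay close together. Fli1, an ETS factor of blood and endothelium, was more spread, with 0.0221 and 0.0133 CPM in mESCs and 42.7, 4.26 and 17.5 CPM in mesoderm (log2 fold change 9.89 ± 1.15 SE, adjusted p = 0.00021). Among the blood markers, Itga2b had 0.0664 and 0.0399 CPM in mESCs and 1.41, 0.655 and 1.61 CPM in mesoderm (log2 fold change 4.44 ± 0.56 SE, adjusted p = 0.00031). The other blood markers were near 0: Gata1 had 1, 0 and 1 counts in mesoderm, Spi1 (PU.1) had 0, 1 and 0, and Hbb-bh1, an embryonic globin, had 5, 0 and 0. Gata1 and Hbb-bh1 passed the threshold on those counts in the fit with the HPC libraries, where their counts were higher, and no fold is given for Gata1. Without B9.3 no Hbb-bh1 count was left in mesoderm. Kit, the receptor of stem cell factor, had 3.08 and 2.99 CPM in mESCs and 24.8, 1.97 and 7.75 CPM in mesoderm and was not called (adjusted p = 0.059).

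Endothelial genes set the mesoderm libraries apart from each other. In all, 17 of the 23 tested members were called higher, 0 lower and 6 in neither direction, with a median log2 fold change of 2.88 (6 higher and 0 lower in the summed fit). Cdh5 (VE-cadherin) had 0 and 0.0133 CPM in mESCs and 37.1, 0.491 and 3.47 CPM in mesoderm, which is 473, 3 and 43 counts in mesoderm against 0 and 1 in mESCs (adjusted p = 0.0021). Over the group that is a ratio of 3500-fold with a 95% counting interval of 626 to 139000. Plxnd1, a semaphorin receptor of vessels, had 0.31 and 0.173 CPM in mESCs and 47.3, 3.93 and 7.43 CPM in mesoderm (log2 fold change 6.30 ± 1.01 SE, adjusted p = 0.0012). Flt1 (VEGF receptor 1) had 1.01 and 0.997 CPM in mESCs and 21.2, 4.75 and 8.15 CPM in mesoderm (log2 fold change 3.52 ± 0.67 SE, adjusted p = 0.0032). Sox7 had 0.0221 and 0.0133 CPM in mESCs and 5.8, 1.47 and 1.94 CPM in mesoderm (log2 fold change 7.12 ± 0.84 SE, adjusted p = 0.00066). In each of these B9.3 was highest and C6.1 lowest. Of the angiopoietin receptors, Tie1 had 0.0443 and 0.173 CPM in mESCs and 10.7, 0.164 and 0.969 CPM in mesoderm. Tek had 1.3 and 0.864 CPM in mESCs and 28.2, 0.819 and 2.99 CPM in mesoderm. For Tie1 C6.1 lay between the mESC libraries and for Tek below both, so the stages overlapped for both genes. Among uncalled members, Pecam1 had 1.76 and 1.9 CPM in mESCs and 14.5, 0.491 and 3.71 CPM in mesoderm (adjusted p = 0.089). Its C6.1 library lay below both mESC libraries. Eng and Notch1 were not called either (adjusted p = 0.057 and adjusted p = 0.19). For Pecam1, Eng and Notch1 B9.3 was again the highest mesoderm library and C6.1 the lowest. Not all of the called endothelial genes named here kept their call in the summed fit. Nrp1, a coreceptor for VEGF and semaphorins, had 0.14 and 0.106 CPM in mESCs and 34.3, 33.2 and 34.9 CPM in mesoderm (log2 fold change 8.04 ± 1.52 SE, adjusted p = 0.003), and its 3 mesoderm libraries were alike. The SE also takes in the HPC libraries of the fit, which ran from 1.06 to 33.2 CPM for Nrp1.

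Without B9.3 the endothelial list had 7 of 20 higher, with a median log2 fold change of 0.94. Without C6.1 it had 18 of 21 higher, with a median of 3.30. Without B9.3 Tek was not called (adjusted p = 0.27, and 6.6e-05 to 0.27 over all alternatives), whereas Cdh5 was (adjusted p = 0.00024, and 1.6e-10 to 0.047 over all alternatives). The summed level of the tested endothelial genes was 26.1 to 28.7 CPM in the mESC libraries, and 409, 86 and 122 CPM in mesoderm B9.3, C6.1 and C8.1. The primitive streak list ran the other way, with 10.8 to 14.6 CPM in the mESC libraries, and 15.9, 45 and 29.4 CPM in mesoderm in the same order. With 1 library for each replicate label, no test of a difference between B9.3, C6.1 and C8.1 can be made, and depth differed with it, as C6.1 had the lowest median count per tested gene.

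**Figure D3:**
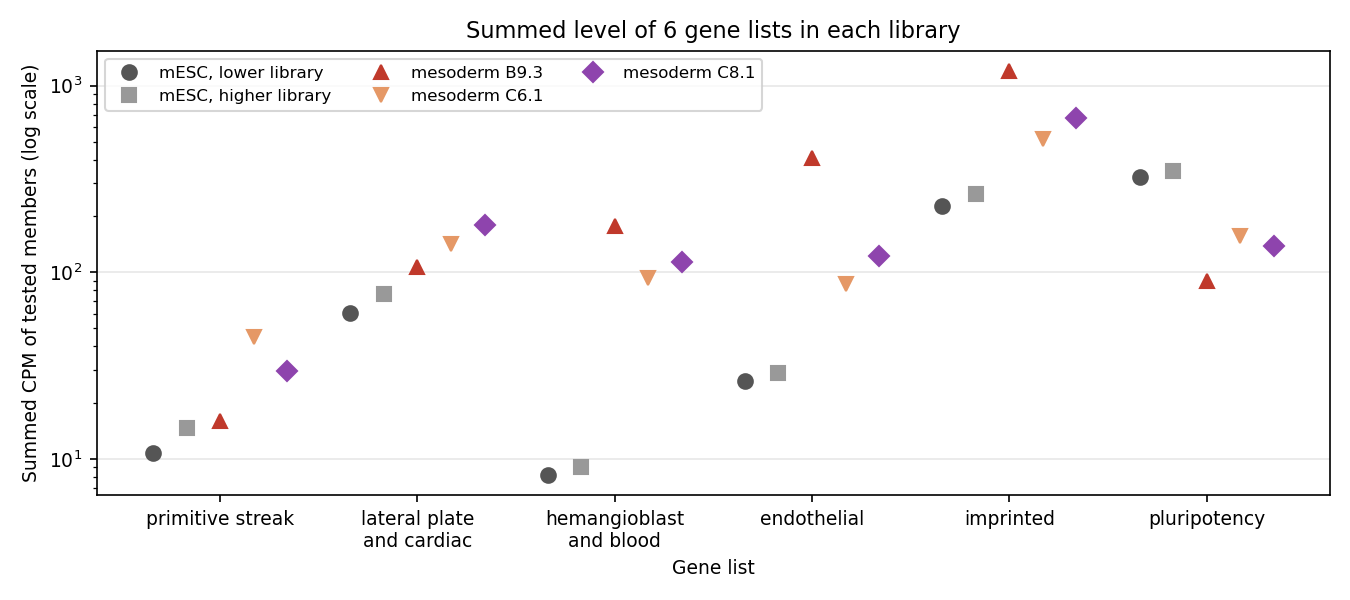
Summed CPM of the tested members of 6 gene lists in each of the 5 libraries, on a log scale; each symbol is 1 library. In mesoderm B9.3 the endothelial sum is highest (409 CPM) and the primitive streak sum lowest (15.9 CPM), and in C6.1 the reverse holds (86 and 45 CPM).

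Other germ layers and mesoderm types gave few calls. Of the 19 paraxial and intermediate mesoderm genes, 5 could be tested, with 0 higher, 1 lower and 4 uncalled (median -0.46). Of 15 neural and surface ectoderm genes, 5 were tested, with 0 higher and 2 lower (median -0.53): Pax6, at least 10.5-fold lower with no count in mesoderm, and Tfap2c, with a single count. Of 15 endoderm and extraembryonic genes, 5 were tested, with 2 higher and 0 lower (median 2.39). Those were Sox7, which is also an endothelial gene, and Gata3, at 0.125 and 0.106 CPM in mESCs and 0.862, 3.6 and 2.99 CPM in mesoderm (log2 fold change 4.30 ± 0.66 SE, adjusted p = 0.0021). These lists rest on few genes, and the members tested change with the libraries, with 4 paraxial members tested without B9.3. The endoderm list had 1 of 4 tested members higher without B9.3 (median 0.28) or without C8.1 (1.16). When libraries were left out singly, the median of the paraxial list ran from -3.32 (without B9.3) to -0.27 (without mESC 2), and no member was called without either mESC library or without C8.1. That of the neural list was -1.43 without B9.3 and -0.23 without C6.1. Dab2 had 0.642 and 0.465 CPM in mESCs and 5.72, 1.31 and 1.45 CPM in mesoderm and was not called (adjusted p = 0.082). Of 39 Hox genes, 2 were tested and both called higher: Hoxd3, with 49, 2 and 42 counts in mesoderm against 3 and 1, and Hoxd4, with 19, 0 and 14 against 0 and 1. The spans of Hoxd3 and Hoxd4 overlap in the table, so their reads cannot be told apart. Neither could be tested without B9.3 or without C8.1.

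Among signalling genes, many of the BMP and TGF-beta pathway were higher. Of this list 18 of the 29 tested members were called higher, 0 lower and 11 in neither direction (median 1.38, with 12 higher and 0 lower in the summed fit). The list has no called lower member, but Nodal, Lefty1 and Lefty2, which stand on the streak list, were lower. Bmp5 had 0 and 0 CPM in mESCs and 2.35, 7.04 and 8.23 CPM in mesoderm, at least 393-fold higher in mesoderm against a floor of 3 counts over the mESC libraries, and Bmp2 had 0.0295 and 0.0266 CPM in mESCs and 1.96, 1.47 and 1.61 CPM in mesoderm (log2 fold change 5.72 ± 0.50 SE, adjusted p = 6.3e-05). Tgfb1 had 0.155 and 0.173 CPM in mESCs and 2.98, 3.93 and 2.83 CPM in mesoderm (log2 fold change 4.26 ± 0.39 SE, adjusted p = 8.9e-05). Bmp2 and Tgfb1 were alike in the 3 mesoderm libraries, and the stages did not overlap. Acvrl1 (ALK1), the receptor of endothelium, had 0.0738 and 0.093 CPM in mESCs and 2.9, 0.491 and 1.53 CPM in mesoderm (log2 fold change 4.36 ± 0.65 SE, adjusted p = 0.00082). Targets rose too: Id3, an inhibitor of bHLH factors, had 0.339 and 0.306 CPM in mESCs and 2.98, 3.11 and 2.66 CPM in mesoderm (log2 fold change 3.15 ± 0.41 SE, adjusted p = 0.00036). Smad6, the feedback inhibitor of BMP, had 1.86 and 1.53 CPM in mESCs and 9.33, 22.8 and 34 CPM in mesoderm (log2 fold change 3.69 ± 0.49 SE, adjusted p = 0.00044). Smad7, the matching inhibitor of TGF-beta, had 14.9 and 13.2 CPM in mESCs and 10.7, 18.8 and 26 CPM in mesoderm and was not called (adjusted p = 0.51), nor was the receptor Bmpr1a (adjusted p = 0.24).

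In the Wnt pathway, 10 of the 30 tested members were called higher, 1 lower and 19 in neither direction (median 0.87, with 4 higher and 1 lower in the summed fit). Wnt5a, a ligand of the pathway that does not act by beta-catenin, had 0.147 and 0.093 CPM in mESCs and 4.62, 7.04 and 11.5 CPM in mesoderm (log2 fold change 5.91 ± 0.70 SE, adjusted p = 0.00024). Wnt5b had 0.229 and 0.253 CPM in mESCs and 2.43, 3.44 and 2.66 CPM in mesoderm (log2 fold change 3.53 ± 0.46 SE, adjusted p = 0.00036). Both ligands were above the mESC level in every mesoderm library. Lgr5, the receptor of R-spondins such as Rspo3, had 0.0369 and 0.0798 CPM in mESCs and 0.706, 5.73 and 6.3 CPM in mesoderm (log2 fold change 6.16 ± 0.93 SE, adjusted p = 0.00088). The receptor Fzd5 fell, with 6.28 and 7.5 CPM in mESCs and 1.1, 0.491 and 0.484 CPM in mesoderm (log2 fold change -3.25 ± 0.51 SE, adjusted p = 0.001). Ctnnb1 (beta-catenin), Apc and Lrp6 were not called, with log2 fold changes of -0.43, 0.02 and 0.54. Gsk3b was called higher (log2 fold change 1.48 ± 0.24 SE, adjusted p = 0.0012), and not with the length trend as an offset.

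FGF, VEGF, Notch and retinoic acid lists were mixed. For FGF, 6 of 19 were higher and 1 lower (median 0.19, with 1 higher and 0 lower in the summed fit), and Fgf10 had the smallest adjusted p of the higher members, at 0.339 and 0.213 CPM in mESCs and 1.25, 11.1 and 6.62 CPM in mesoderm (log2 fold change 4.42 ± 0.86 SE, adjusted p = 0.0035). For ligands and receptors of vessels, 8 of the 19 tested members were called higher, 4 lower and 7 in neither direction (median 1.26, with 4 higher and 3 lower in the summed fit). Aplnr, the apelin receptor of early mesoderm, had 0 and 0 CPM in mESCs and 13.9, 6.22 and 4.2 CPM in mesoderm, at least 603-fold higher, and Cxcr4, a chemokine receptor of migrating mesoderm, had 0.0664 and 0.0266 CPM in mESCs and 1.33, 6.55 and 5.81 CPM in mesoderm (log2 fold change 6.35 ± 0.86 SE, adjusted p = 0.00045). The guidance ligand Sema3e was lower (log2 fold change -4.68 ± 0.83 SE, adjusted p = 0.0022). Vegfa, the ligand of Flk1, was at 1.9 and 1.51 CPM in mESCs and 2.74, 1.64 and 3.71 CPM in mesoderm and was not called (adjusted p = 0.39). Of 17 Notch pathway genes, 5 were higher and 4 lower (median -0.06, with 1 higher and 2 lower in the summed fit). Maml3, a coactivator of Notch, was higher (log2 fold change 5.29 ± 0.62 SE, adjusted p = 0.00021). Rbpj, the DNA-binding factor of the pathway, was lower, at 20.1 and 18.6 CPM in mESCs and 6.51, 6.55 and 6.05 CPM in mesoderm (log2 fold change -1.61 ± 0.22 SE, adjusted p = 0.00052). Of 11 retinoic acid genes, 2 were higher and 1 lower (median 0.33, with 0 higher and 1 lower in the summed fit): Cyp26a1, which breaks down retinoic acid, was higher (log2 fold change 5.25 ± 0.93 SE, adjusted p = 0.0021), and so was Rarb, while Rarg was lower (log2 fold change -2.17 ± 0.42 SE, adjusted p = 0.0032). In the summed fit Rarb lost its call and Cyp26a1 had too few counts to be tested. Without B9.3 the retinoic acid list had no member called higher and a median of -0.32, over 8 tested members against 11.

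Matrix genes were higher for 8 of 28 members and lower for 2 (median 1.25), but in the summed fit for 1 and 1, and without B9.3 for 5 of 27 and 3, with a median of 0.47. Lama4, a laminin chain of vessel walls, had 0.376 and 0.226 CPM in mESCs and 20.5, 6.71 and 8.07 CPM in mesoderm (log2 fold change 5.25 ± 0.67 SE, adjusted p = 0.00033). Lama5, the laminin chain of epithelial basement membrane, fell, at 58.8 and 47.8 CPM in mESCs and 5.33, 14.2 and 17.8 CPM in mesoderm (adjusted p = 0.0073). The collagens Col4a1, Col4a2 and Col1a1 were called higher, with B9.3 or C8.1 at the top and C6.1 at the bottom, and all 3 lost the call in the summed fit.

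Chromatin regulators changed in a few members each. For DNA methylation and demethylation, 2 of 14 were higher and 4 lower (median -0.51, with 2 higher and 2 lower in the summed fit). Tet1, the hydroxylase of 5-methylcytosine that dominates in mESCs, had 72.8 and 78.1 CPM in mESCs and 8.62, 14.4 and 15.5 CPM in mesoderm (log2 fold change -2.56 ± 0.30 SE, adjusted p = 0.00024). Tet3 had 4.93 and 4.67 CPM in mESCs and 28.3, 9.33 and 19.4 CPM in mesoderm (log2 fold change 2.00 ± 0.38 SE, adjusted p = 0.0032). Dnmt1 and Uhrf1, which copy methylation at replication, were not called, with log2 fold changes of -0.05 and -0.21. Of 30 Polycomb and Trithorax genes, 4 were higher and 5 lower (median -0.01, with 4 higher and 4 lower in the summed fit), near the shares over all genes. Phc1, a subunit of PRC1, had 27.8 and 29.8 CPM in mESCs and 3.06, 4.09 and 3.23 CPM in mesoderm (log2 fold change -3.08 ± 0.24 SE, adjusted p = 2.3e-05). Its paralog Phc2 had 2.29 and 2.09 CPM in mESCs and 13.4, 6.38 and 8.15 CPM in mesoderm (adjusted p = 0.0014). Cbx7, the chromodomain subunit of PRC1 in mESCs, had 8.69 and 10.4 CPM in mESCs and 0.549, 0.655 and 0.807 CPM in mesoderm (log2 fold change -3.82 ± 0.35 SE, adjusted p = 9.2e-05). Kdm6b, a demethylase of H3K27, had 1.78 and 2.29 CPM in mESCs and 21.2, 22.4 and 21 CPM in mesoderm (log2 fold change 3.40 ± 0.24 SE, adjusted p = 1.8e-05), and its 3 mesoderm libraries lay almost on top of each other.

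Glycolysis and hypoxia genes fell in 15 of 27 members, with 1 higher and 11 in neither direction (median -1.06, with 0 higher and 5 lower in the summed fit). Eno1 (enolase) had 24.7 and 21 CPM in mESCs and 3.76, 3.44 and 6.05 CPM in mesoderm (log2 fold change -2.35 ± 0.27 SE, adjusted p = 2e-04). Pgk1 had 7.13 and 7.44 CPM in mESCs and 1.8, 1.31 and 0.888 CPM in mesoderm (log2 fold change -2.44 ± 0.31 SE, adjusted p = 0.00033). Gapdh had 15.8 and 12.4 CPM in mESCs and 3.45, 4.75 and 4.84 CPM in mesoderm (log2 fold change -1.71 ± 0.27 SE, adjusted p = 0.001). For these 3 enzymes every mesoderm library lay below both mESC libraries. Bnip3, a hypoxia-induced gene of mitochondrial turnover, was lower too (log2 fold change -3.02 ± 0.39 SE, adjusted p = 0.00036). Aldoa and Ldha were not called (adjusted p = 0.22 and adjusted p = 0.071), nor was Hif1a, at 9.04 and 7.38 CPM in mESCs and 15.3, 9.17 and 8.23 CPM in mesoderm. The median length of these genes was 23009 bp, close to the 25332 bp over all tested genes, and with the length trend as an offset 12 were lower. Near-identical processed copies of Gapdh, Pgk1 and Eno1 lie elsewhere in the mouse genome, and the counting could split reads between them.

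The cell cycle list stayed near the background, with 4 of 31 higher and 4 lower (median -0.33, with 1 higher and 3 lower in the summed fit). Ccnd2 had 1.17 and 1.55 CPM in mESCs and 9.88, 26.4 and 13 CPM in mesoderm (log2 fold change 3.57 ± 0.58 SE, adjusted p = 0.0013). Ccne1, the G1/S cyclin that is high in mESCs, had 5.34 and 6.15 CPM in mESCs and 0.941, 1.64 and 1.21 CPM in mesoderm (log2 fold change -2.24 ± 0.37 SE, adjusted p = 0.0013). Mycn fell, at 13 and 14 CPM in mESCs and 5.96, 2.13 and 2.83 CPM in mesoderm (log2 fold change -1.84 ± 0.35 SE, adjusted p = 0.0031), while Myc was higher (log2 fold change 1.52 ± 0.39 SE, adjusted p = 0.014) and lost its call in the summed fit. Top2a was not called (log2 fold change -0.19 ± 0.25 SE, adjusted p = 0.61).

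Imprinted genes, which are read from only one parental copy, were higher in 15 of 23 tested members and lower in 1 (median 1.98, with 4 higher and 1 lower in the summed fit). Airn, the noncoding RNA that silences Igf2r on the paternal copy, had 1.12 and 0.797 CPM in mESCs and 60.3, 19.3 and 67.9 CPM in mesoderm (log2 fold change 5.67 ± 0.56 SE, adjusted p = 0.00011). Usp29, in the Peg3 domain, had 0.236 and 0.146 CPM in mESCs and 7.68, 7.86 and 8.96 CPM in mesoderm (adjusted p = 9.5e-05). Zim1, in the same domain, had 0.0959 and 0.106 CPM in mESCs and 3.68, 3.77 and 4.6 CPM in mesoderm (adjusted p = 0.0038) and lost its call in the summed fit. Peg3 itself, at 7.12 and 8.36 CPM in mESCs and 110.0, 93.8 and 74.1 CPM in mesoderm, was called (adjusted p = 0.0049), but not in the summed fit (adjusted p = 0.059, and 2e-07 to 0.069 over all alternatives). Igf2, the fetal growth factor, had 0.952 and 0.585 CPM in mESCs and 334, 59.6 and 116 CPM in mesoderm (log2 fold change 7.77 ± 1.65 SE, adjusted p = 0.0056). All 3 mesoderm libraries were far above mESCs for Igf2, B9.3 the furthest, yet the call was lost in the summed fit (adjusted p = 0.069, and 5.3e-09 to 0.075 over all alternatives). Rian, a noncoding RNA of the Dlk1 domain, had 58.9 and 48.9 CPM in mESCs and 98, 26.2 and 41.5 CPM in mesoderm. Meg3, of the same domain, had 13.1 and 13.4 CPM in mESCs and 33.9, 9.66 and 19.5 CPM in mesoderm. Neither was called (adjusted p = 0.98 and adjusted p = 0.64). Snrpn was lower (log2 fold change -1.85 ± 0.28 SE, adjusted p = 0.00092). The median length of the tested imprinted genes was 53442 bp, and with the length trend as an offset 13 were higher. Airn overlaps Igf2r, Snrpn overlaps Snhg14 and Igf2 overlaps Igf2os, as Pax6 does Elp4 and Sox2 does Sox2ot, and reads of such pairs cannot be told apart, since the strand setting of the counting is not given in the sources used here.

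The list of noncoding RNAs without a poly(A) tail or kept in the nucleus also holds host genes of small nucleolar RNAs. Of these host genes, Gas5, Snhg3 and Snhg5 were called lower. On the whole list, 7 of 12 tested members were lower and 0 higher (median -1.42, with 0 higher and 5 lower in the summed fit, and 1 higher and 4 lower with the length trend as an offset). The median length of the tested members was 1800.5 bp, within the shortest of 4 length bins (31 to 10874 bp), where the median log2 fold change of all tested genes was -0.57. Terc, the telomerase RNA, had 19.11 and 15.4 CPM in mESCs and 1.33, 2.78 and 2.42 CPM in mesoderm (log2 fold change -3.03 ± 0.36 SE, adjusted p = 0.00024). Neat1, the scaffold of paraspeckles, had 11.2 and 12.5 CPM in mESCs and 2.19, 0.819 and 2.18 CPM in mesoderm (log2 fold change -2.69 ± 0.43 SE, adjusted p = 0.0012). Malat1 had 1203 and 1171 CPM in mESCs and 469, 404 and 579 CPM in mesoderm (log2 fold change -1.29 ± 0.28 SE, adjusted p = 0.0061). Rpph1 and Rmrp, the RNAs of RNase P and RNase MRP, were not called (adjusted p = 0.18 and adjusted p = 0.25).

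**Figure D4:**
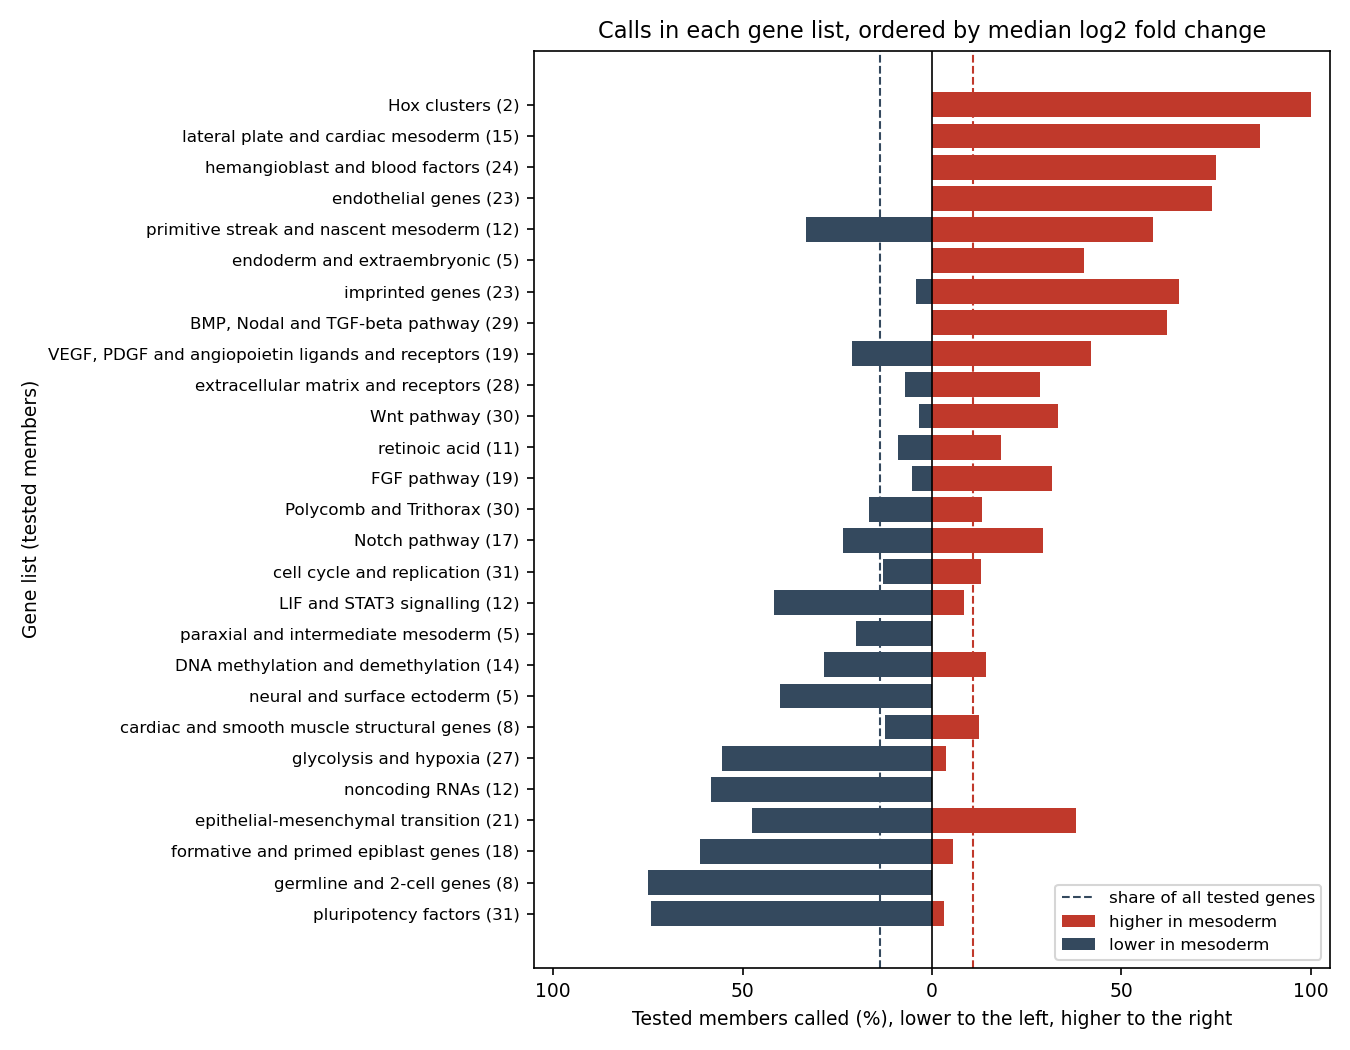
Share of tested members called higher (red, to the right) or lower (blue, to the left) in mesoderm for each of the 27 gene lists, with the number of tested members in brackets. Dashed lines mark the shares over all tested genes, 10.7% higher and 13.7% lower. Lateral plate, blood and endothelial lists have no member called lower, and the germline list none called higher.

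By smallest adjusted p, several genes outside the lists stood beside the known factors. Zfp703, a zinc finger corepressor, had 0.0147 and 0.0266 CPM in mESCs and 4.62, 3.93 and 4.12 CPM in mesoderm, from 2 counts in each mESC library (log2 fold change 7.51 ± 0.46 SE, adjusted p = 1.4e-05). Amot, which holds YAP at cell junctions, had 2.19 and 1.59 CPM in mESCs and 41.6, 62.7 and 66.4 CPM in mesoderm (log2 fold change 4.90 ± 0.36 SE, adjusted p = 1.8e-05). Pcdh7, a protocadherin, had 0.236 and 0.146 CPM in mESCs and 40.1, 59.1 and 31.5 CPM in mesoderm (log2 fold change 7.76 ± 0.72 SE, adjusted p = 9.2e-05). Col23a1, a transmembrane collagen, had 0.0664 and 0.093 CPM in mESCs and 6.27, 4.91 and 6.14 CPM in mesoderm (log2 fold change 6.16 ± 0.45 SE, adjusted p = 1.8e-05). Genes were taken here only where the libraries of the stages do not overlap, so that separation is not a finding. Zfp592 was also higher (log2 fold change 2.46 ± 0.23 SE, adjusted p = 9.2e-05). On the side of losses, Lncenc1 had 37.6 and 46.5 CPM in mESCs and 0.392, 0.327 and 0.242 CPM in mesoderm (log2 fold change -7.02 ± 0.33 SE, adjusted p = 1.8e-05). Jade1, a scaffold of histone acetyltransferase complexes, had 57.6 and 65.3 CPM in mESCs and 3.37, 5.73 and 5.97 CPM in mesoderm (log2 fold change -3.62 ± 0.28 SE, adjusted p = 2.5e-05). Abcc4, a nucleotide exporter, had 40.2 and 36.5 CPM in mESCs and 0.941, 1.97 and 1.13 CPM in mesoderm (log2 fold change -4.92 ± 0.43 SE, adjusted p = 6.3e-05). Pml, of the nuclear bodies that bear its name, had 18.3 and 19.6 CPM in mESCs and 2.67, 2.13 and 2.5 CPM in mesoderm (log2 fold change -2.94 ± 0.27 SE, adjusted p = 9.4e-05). The same rule was used to choose the genes on this side.

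Slc27a2, a fatty acid transporter, kept 1 count in mesoderm against 1406 and 706, a ratio of 313-fold with a 95% counting interval of 56.1 to 12400. Jam2, a junctional adhesion molecule, was lower (log2 fold change -6.04 ± 0.52 SE, adjusted p = 5.9e-05), as were Adgrv1 (log2 fold change -4.85 ± 0.41 SE, adjusted p = 5.9e-05) and Zfp980 (log2 fold change -5.04 ± 0.40 SE, adjusted p = 2.7e-05). The noncoding RNAs Platr22 (log2 fold change -4.19 ± 0.38 SE, adjusted p = 9.2e-05) and Platr14, with 1 count in mesoderm, completed the 15 genes on this side. No gene of these 2 groups of 15 lost its call under any alternative in which it was tested.

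By difference in mean CPM, the largest losses included Malat1, H2bc18, Tet1, Jade1, Fat1, Jarid2, Mdn1, Lncenc1 and Lama5. H2bc18, a histone gene, Fat1, Jarid2 and Mdn1 lost their calls in the summed fit, and H2bc18 and Malat1 with the length trend as an offset. Malat1 and Lama5 were also not called without mESC 1. Jarid2, a cofactor of PRC2, had 70.7 and 72.8 CPM in mESCs and 23.4, 30.8 and 24.3 CPM in mesoderm. On the other side stood, among others, Cmss1, Cdk8, Lars2, Camk1d, Gphn, Kcnip1, Il31ra, Igf2 and Peak1. Il31ra and Igf2 lost their calls in the summed fit. Counts of Cmss1, Cdk8 and Camk1d moved with ribosomal RNA. Cmss1 had 132 to 166 counts per 1000 counts of Rn45s, the ribosomal RNA precursor, in the 5 libraries, although its fitted log2 fold change was 4.15. For Cdk8 the range was 47.6 to 66.3 with a log2 fold change of 4.38, and for Camk1d 5.81 to 8.7. The ranges were wider for Lars2 (25 to 67.1) and Gphn (5.47 to 23.3). The part that ribosomal RNA had in these changes was not tested. Igf2 did not follow Rn45s in this way, with 0.0117 to 0.84 counts per 1000.

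Open chromatin at the starts of these genes was read from the 76766 ATAC-seq peaks of wild-type mesoderm, called by the authors on merged libraries of cells that the methods give as a reporter line of E14-TG2a and given as positions on mm9. A peak lay within 1 kb of the annotated start for 79% of the 1354 single-locus genes called higher (95% Wilson interval 76.8 to 81.1%), for 72% of the 1758 called lower (69.8 to 74%) and for 87% of the 9667 not called (86.3 to 87.7%). The intervals cover counting error alone, and no peaks of undifferentiated cells were analysed here. Most genes called lower had a peak at their start in mesoderm. Zfp42, whose octamer promoter is printed above, had a peak of 141 bp over its start (chr8:44392320-44392460) and Tfcp2l1 one of 172 bp (chr1:120524366-120524537), and for Lncenc1 a peak began 46 bp away.

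The nearest peaks to Pou5f1, Nanog and Cdh1 lay 10724, 4647 and 16474 bp from their starts. Among the gains, Kdr had a peak over its start (chr5:76374413-76374636), as did Cbfa2t3 (chr8:125223009-125223406), Hand1, Tbx20 and Zeb2, and for Tal1 a peak began 52 bp away. Cdh5 and Fli1 had none within 1 kb (2744 and 9328 bp). By list, 10 of 23 lower pluripotency factors and 2 of 10 lower genes of the transition list had a peak at the start, against 15 of 15 lower genes of glycolysis and hypoxia and 16 of 18 higher genes of the BMP and TGF-beta list. Among higher genes of other lists it was 7 of 17 for endothelium, 8 of 13 for lateral plate and 0 of 2 for retinoic acid.

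**Figure D5:**
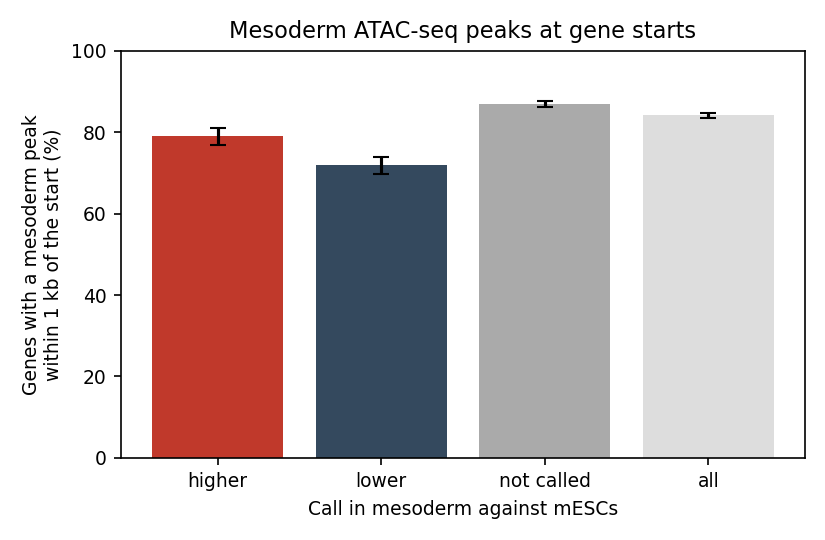
Share of single-locus tested genes with a wild-type mesoderm ATAC-seq peak within 1 kb of the annotated start, by call; bars are shares and error bars 95% Wilson intervals. Genes called lower have the smallest share (72%), genes called higher 79% and genes not called 87%.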

How the data were processed

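Poly(A)-minus RNA-seq of wild-type undifferentiated mESCs (2 libraries) and Flk1+ mesoderm (3) was compared. The count values are whole read counts as deposited: the authors mapped reads to mm9 with STAR, removed duplicates with picard, and counted exons and introns with featureCounts, without normalization; the strand setting is not given in the sources used here. The ATAC-seq positions are the authors' MACS2 peaks on merged libraries, from a line that the methods give with Runx1 reporters and the labels as E14-TG2a.

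The test was edgeR's quasi-likelihood fit (version 4.0.16, R version 4.3.3) with TMM factors and Benjamini-Hochberg adjustment. Low genes were removed by filterByExpr at 10 counts. The fit held 9 wild-type libraries, of which 4 are HPCs (day 7), included for the estimate of spread. The HPC libraries help decide which genes pass the filter. CPM use TMM library sizes. The SE is the log2 fold change over the square root of F. Entries of several loci, over 2.5 Mb or of ribosomal RNA were not named (186 in the count table, of which 120 were tested). Where a group had no count, the fold is a bound against 3 counts over the group (0.0142 CPM in mESCs, 0.096 CPM in mesoderm); with 1 to 3 counts, the ratio of pooled CPM has an exact interval; both cover counting error only. Total counts were 18233679 to 24283287 per library. P-values and SE rest on the spread within the groups of all 9 libraries, HPCs included, and the mESC pair is technical. For some genes the HPC libraries were far apart. HPC B9.3 had 33.2 CPM for Nrp1, 19.2 for Tbx20 and 99.9 for Igf2. The other HPC libraries had 1.06 to 2.13, 0.532 to 0.862 and 3.14 to 9.04 CPM.

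Members and the 27 gene lists were chosen with earlier results of these data known; 637 of 643 list entries matched a gene, 6 by a synonym. Named were the stage and lineage markers, per direction the 15 genes of smallest adjusted p and the 10 of largest CPM difference whose libraries do not overlap (predicted names, clone names and small RNAs left out), and per list up to 6 called members per direction and 3 uncalled. A few genes that this rule names are not reported here. Lists are described by counts and medians, without a test. Alternatives were DESeq2 (version 1.42.0), RLE factors, multi-locus entries left out, no filter, no fold limit, the 5 libraries alone, the mESC pair summed, each library left out and, added after seeing the data, a length offset. The main fit was run on simulated counts of 11553 genes, where 135 of 184 changed genes were recovered and 10 unchanged genes were called. Each simulated library was drawn independently, so this cannot test the use of a technical pair as 2 samples. No column of the count table lay outside the series.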

Additional observations from a re-analysis of the deposited data

How the results depend on the processing

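The number of called genes turned on the technical mESC pair. With the pair summed to 1 sample, 1142 genes were called in both directions together (553 higher and 589 lower), against 3147 (1386 and 1761). When libraries were left out singly, the total ran from 1085 to 2866, the higher calls from 507 to 1370 and the lower calls from 540 to 1496. The lowest values came from leaving out an mESC library (1085 without mESC 1 and 1088 without mESC 2), where the single sample left is assumed to vary like the other groups. DESeq2, RLE factors, leaving out multi-locus entries, no filter, no fold limit, the 5 libraries alone and the length offset gave totals of 2669, 3077, 2920, 3962, 3507, 3277 and 2759. DESeq2 left 532 genes without an adjusted p.

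Of 208 named genes that were called, 125 kept the call under every alternative that tested them and 83 lost it under at least 1, 80 of them when a library was left out. The log2 fold change of Hbb-bh1 ran from 0 (without B9.3) to 6.09 (without C8.1) when libraries were left out. The share of genes with a mesoderm ATAC-seq peak was 74.3% for higher and 67.9% for lower calls within 500 bp, 89.7% and 82.3% within 5 kb, and 64.7% and 58.1% for peaks wider than the median. Lower calls had the smaller share at these settings, but within length bins in only 3 of 4. No paired analysis was possible because the mESC libraries do not carry the replicate names of the mesoderm libraries. Depth in mesoderm, with a median of 9 to 19 counts per tested gene, limits what can be shown for genes lost there. Of the lower calls, 259 had no mesoderm count and a further 352 had 1 to 3 counts over the mesoderm libraries.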

Other observations

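Gene groups noticed after the values were seen are given here as values, with no test. All 8 tested Platr genes, noncoding RNAs named for their tie to pluripotency, were called lower, with a median log2 fold change of -5.99. In a cluster of zinc finger genes on chromosome 4 (chr4:145100661-147222527, mm9), 13 Zfp genes were tested, of which 0 were higher and 10 lower, with a median of -3.27. Over all 350 tested Zfp genes 24 were higher and 37 lower, with a median of -0.16. The genes of that cluster are near-identical copies of each other, so reads may be split or lost among them and the value of any one of them is uncertain.

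Of 69 tested histone genes, 1 was higher and 20 lower, with a median log2 fold change of -0.75. Their median length was 494 bp, within the shortest of 4 length bins, where the median over all genes was -0.57. The part that length had in their change was not tested.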
